A study of Mus musculus with 1152 samples.

Results

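Among the lymphatic endothelial cells (LECs) sorted from the nasopharyngeal mucosa of aged mice, 63 cells had their highest score on a set of 5 genes known from lymphatic valves: Gja4, Clu, Angpt2, Foxc2 and Itga9. They were 9.60% of all cells in the table (exact 95% interval 7.46 to 12.1) and were chosen by those measured values. Each gene was scaled to a z-score over all cells, 6 class scores were formed as mean z-scores over 31 genes in all, and a cell joined the class of its highest score. The label given to the class, downstream-valve-like, was only partly met by the data described below: the 5 markers hardly varied together over the cells, Angpt2 did not follow the others, and Cldn11, which the study requires beside Gja4 for a downstream-valve LEC, was found no more often than in the remaining cells. The cells are therefore called Gja4-Clu-Foxc2 cells here, after the markers that most often led the score, and no cell type is inferred from that name. Nor does the name mean that these genes were found together in each cell: Gja4 and Foxc2 were both found in 26 of the 63 (41.3%).

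The study asked how cerebrospinal fluid leaves through the nasopharyngeal lymphatic plexus and how this plexus changes with age. Its single group here was CD31+ PDPN+ cells of aged c57bl/6 mice, with no transgene, deletion or treatment named in the labels. Mucosa of both sexes was pooled before sorting, 1 cell was placed in each well, and full-length Smart-Seq3 libraries were made. No label ties a cell to an animal, so the pool counts as 1 sample: no p-value, standard error of a group or test is given, standard deviations (SD) describe the spread between cells, and intervals cover counting error only.

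Lymphatic valves are pairs of leaflets, made of endothelial cells over a matrix core, that keep lymph moving in one direction. The endothelium on the upstream and downstream faces of a leaflet meets different flow, and the faces are known to differ in the connexins and other proteins that they carry. Foxc2, a forkhead transcription factor, and Gja4, which encodes the gap junction protein connexin 37, act in valve formation. Itga9 encodes an integrin subunit that binds matrix of the leaflet core, Angpt2 encodes angiopoietin 2, a ligand of the Tie2 receptor needed for lymphatic remodelling, and Clu encodes the secreted chaperone clusterin. In the GRCm38 assembly (mm10, GENCODE M21), the protein-coding gene Gja4 lies at chr4:127311421-127314039 on the minus strand and Foxc2 at chr8:121116171-121118895 on the plus strand. Clu lies at chr14:65968483-65981547 (plus), Angpt2 at chr8:18690263-18741562 (minus) and Itga9 at chr9:118606690-118901003 (plus).

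The table held 23168 genes, with 2006 to 7679 of them found per cell and 7046 to 10727631 reads per cell. The Gja4-Clu-Foxc2 cells had a median of 153585 reads (8319 to 5322670) and 3775 genes (2067 to 7593), and a median mitochondrial share of 1.44%. The other 5 classes had medians of 106747 to 184208 reads and 3629 to 4164 genes, so the Gja4-Clu-Foxc2 cells were neither the shallowest nor the deepest. Cells were numbered through 12 blocks of 96 consecutive labels. What the blocks stand for is not stated, and 2 to 9 Gja4-Clu-Foxc2 cells fell in each, from 5% to 12.7% of a block's cells.

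The class had no clear edge. Scores on the 5 markers ran from 0.036 to 2.21 in the members (median 0.667) and from -0.729 to 1.23 in the other cells (median -0.11). In 26 of the 63 members (41.3%) the score exceeded the next class's score by less than 0.25, and 62 of the other cells (10.5%) missed the cut by less than 0.25. The 3 members nearest to the cut passed it by 0.0056, 0.0128 and 0.017, whereas the 3 nearest cells outside missed it by 0.0068, 0.014 and 0.0224. A further 21 cells (3.54%) outside the class had a score above the members' median and belonged elsewhere because another score was higher still. The next-best class of the members was the precollecting-like class, scored on Foxp2, Bgn, Apoe, Bmp4 and Comp, in 25 cells and the Ptn-Anxa3-Stc1 class in 16, but the upstream-valve-like class, scored on Cldn11, Gata2, Neo1, Fxyd2 and Gdf10, in only 9.

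**Figure D1:**
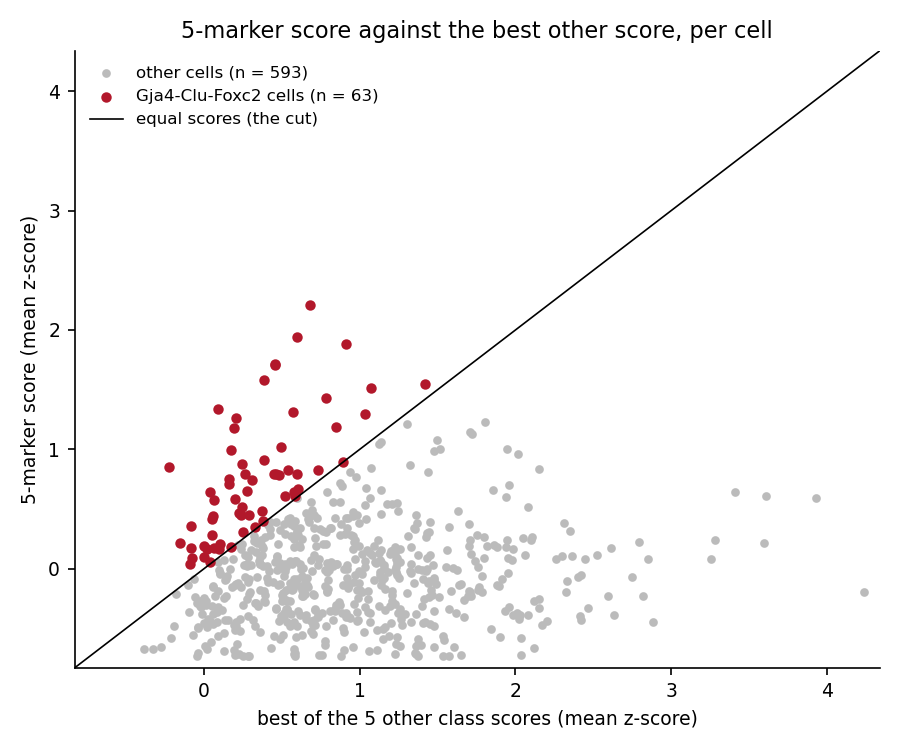
The 5-marker score of each cell (vertical axis, mean z-score) is plotted against the best of its 5 other class scores (horizontal axis, mean z-score). The 63 red members lie above the line of equal scores, 26 of them within 0.25 of it, and grey cells continue on the other side without a gap.

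Members reached the score by different routes. Values are given as the natural log (ln) of 1 plus reads per 10000 reads of the cell. All 5 markers were found in 17 of the 63 members, 4 in 23, 3 in 18, 2 in 4 and 1 in 1. The marker with the highest z-score was Foxc2 in 20 members, Clu in 15, Gja4 in 14, Itga9 in 8 and Angpt2 in 6. Over all cells the 10 pairs of markers had a median Spearman rho of 0.016, with the highest value for Gja4 with Clu (0.18) and the lowest for Gja4 with Angpt2 (-0.13). The gene sets of the other 5 classes had median pair correlations of 0.139 to 0.268 over the same cells. These correlations describe cells of 1 pool that share library preparation and differ in depth, and after thinning every cell to 20000 reads, with shallower cells left out, the median over the 5 markers was 0.057.

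The connexin gene Gja4 was found in 50 of 63 members (79.4%) at a mean level of 1.40 ± 1.09 (SD), against 55.5% and 0.54 ± 0.78 in all other cells. Its level in members ran from 0 to 3.88 with a median of 1.46. The precollecting-like cells came next with 67.3% and a mean of 0.73, and upstream-valve-like cells had 54.8% and 0.57. Gja4 was thus present in most classes and marked no class by presence alone.

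Clusterin had the widest range among the 5 markers in the members, from 0 to 4.26 with a median of 1.53. Its mean was 1.54 ± 1.44 (81% of members), against 0.55 ± 0.90 (55.1%) in the other cells. Precollecting-like cells again stood second, with a mean of 0.90, and the Fndc1-type capillary-like cells, scored on Fndc1, Tppp3, Fbln7, Reln and Ccl21a, were lowest with 0.25.

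Foxc2 was sparse everywhere. It was found in 35 of 63 members (55.6%, interval 42.5 to 68.1) at a mean of 0.34 ± 0.41 and a highest value of 1.47, against 11.6% and a mean of 0.033 in the other cells. The Ptx3+ capillary-like class, scored on Ptx3, Stab2, Stab1, Itih5, Mrc1 and Gpx3, had it in 4 cells (2.88%). In thinned cells the share of members with Foxc2 was 39.6% and that of the other cells 7.96%. Since the rule used Foxc2, these shares describe the choice and support nothing.

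Itga9 was found in 84.1% of members at a mean of 1.09 ± 0.77, with a median of 1.07 and a highest value of 2.40. The other cells had it in 73.9% at a mean of 0.64 ± 0.64. Among the other classes its means lay between 0.45 in the precollecting-like cells and 0.78 in the Ptn-Anxa3-Stc1 cells, so the order of classes for Itga9 was unlike that for Gja4 and Clu.

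Angpt2 was the exception. Although the rule rewarded it, its mean in members (1.03 ± 1.11, 81% of cells) was not above that of the other cells (1.07 ± 1.16, 79.3%). Higher means were found in the Ptx3+ capillary-like cells (1.82) and the upstream-valve-like cells (1.62). Levels in members ran from 0 to 3.56 with a median of 0.71.

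**Figure D2:**
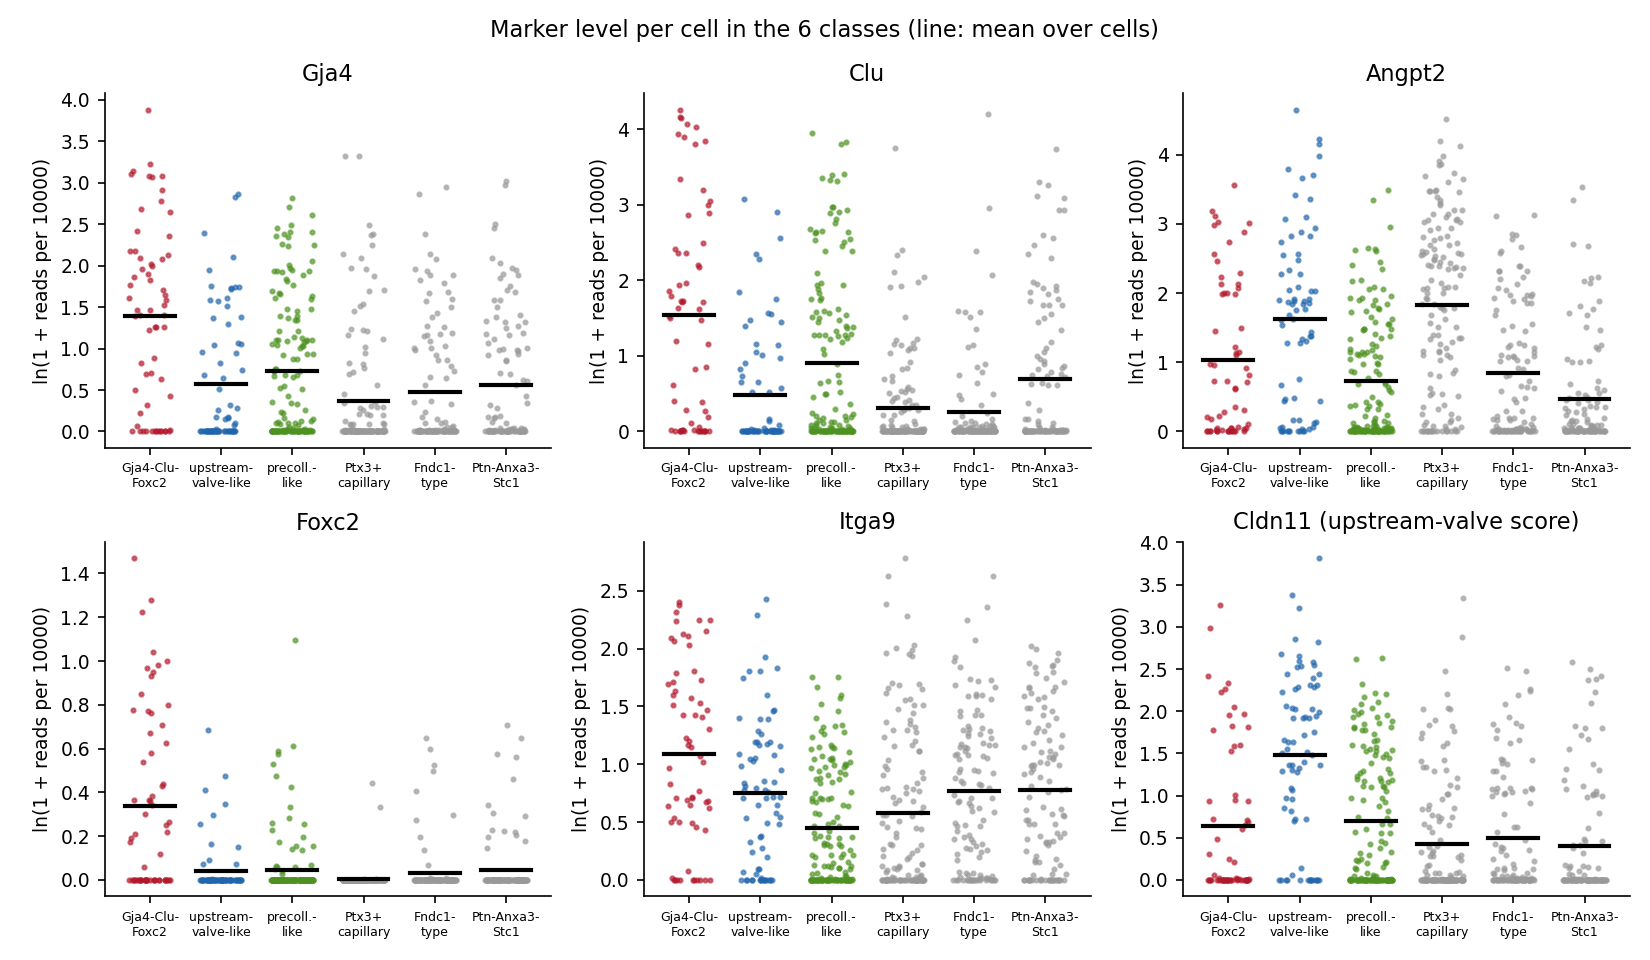
Each point is 1 cell and each line a class mean on the scale of ln(1 + reads per 10000), for the 5 markers and Cldn11 in the 6 classes. Gja4, Clu, Foxc2 and Itga9 have their highest class means in the 63 Gja4-Clu-Foxc2 cells because the rule chose for them, while the Angpt2 mean is highest in Ptx3+ capillary-like cells (1.82) and the Cldn11 mean in upstream-valve-like cells (1.48).

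To see how each marker stood when it had no part in the class's own score, the class was formed again 5 times. Each time the other 4 markers were used, and the left-out marker was read. The 5 other class scores still competed for the cells, so the left-out levels are not wholly independent of the choice. Cells chosen without Gja4 (64 cells, 48 of them members) had Gja4 at a mean of 0.91 against 0.59 in the rest, a difference of 0.32, and the mean was higher in 8 of the 10 blocks with at least 3 chosen cells. The share of cells with Gja4 was 64.1% (51.1 to 75.7) against 57.1% (53 to 61.1). Cells chosen without Clu (75 cells) had Clu at a mean of 1.08 against 0.59, a difference of 0.50, higher in 7 of 11 blocks. For these 2 genes the levels differed in the direction of the label, although the intervals of their shares overlapped and the differences were smaller than their SD over blocks (0.49 and 0.68).

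The remaining markers gave less. Cells chosen without Foxc2 (74 cells) had Foxc2 in 25.7% (16.2 to 37.2) against 14.6% (11.8 to 17.7), but the means were 0.093 and 0.059 and the mean was higher in 4 of 11 blocks. Itga9 was found in 72% of the 75 cells chosen without it and in 75.2% of the rest, with a difference of means of 0.015. Angpt2 went the other way: its mean was 0.60 in the 86 cells chosen without it and 1.13 in the rest, a difference of -0.53, and it was lower in the chosen cells in all 11 blocks. The competing Ptx3+ capillary-like and upstream-valve-like classes had high Angpt2 means (1.82 and 1.62), and their part in this difference was not tested. With no class formed, the rho of Angpt2 with the other 4 markers over all cells ran from -0.13 to -0.062. Cells and blocks come from 1 pool, so the block counts describe these libraries.

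**Figure D3:**
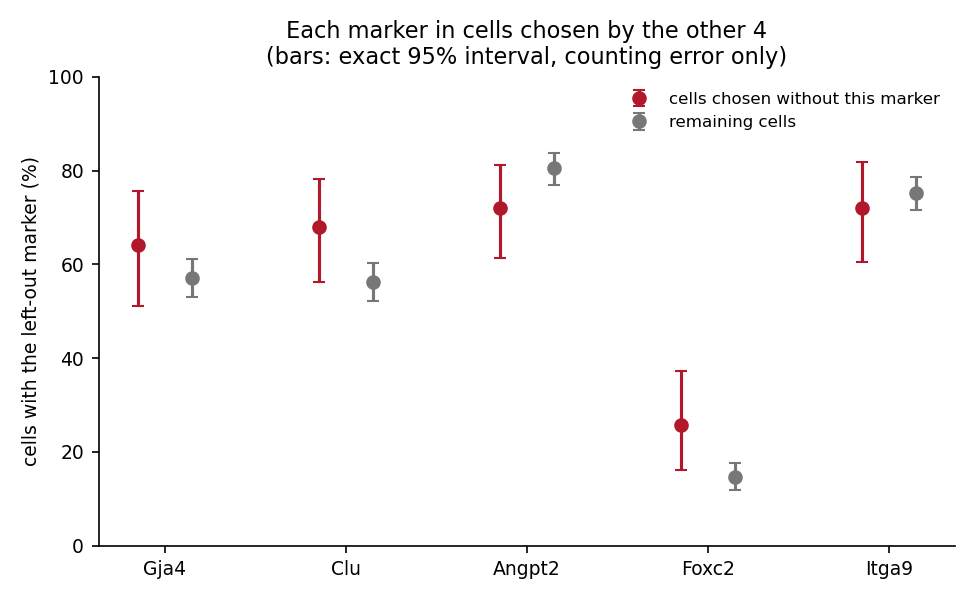
The share of cells (%) with each marker is shown for cells chosen by the other 4 markers (red) and for the remaining cells (grey), with exact 95% binomial intervals that cover counting error only. Clu (68% against 56.3%) and Foxc2 (25.7% against 14.6%) show the largest gaps upwards, and Angpt2 (72.1% against 80.5%) lies below the rest.

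The study's own definition of downstream-valve LECs joins Gja4 with Cldn11, which encodes the tight junction protein claudin 11, while upstream-valve LECs carry Cldn11 without Gja4. Cldn11 (chr3:31149920-31164324, plus strand) was found in 35 of 63 Gja4-Clu-Foxc2 cells (55.6%, 42.5 to 68.1) at a mean of 0.64, and in 58.5% of all other cells, also at a mean of 0.64. The upstream-valve-like cells, whose rule used Cldn11, had it in 83.6% at a mean of 1.48. A cell rich in Cldn11 was drawn towards that class, so the Cldn11 level of the Gja4-Clu-Foxc2 cells is not independent of the rule. Both genes were found in 28 Gja4-Clu-Foxc2 cells (44.4%, 31.9 to 57.5), in 45.2% of upstream-valve-like cells, in 44% of precollecting-like cells, in 24.6% of Ptn-Anxa3-Stc1 cells and in 34.1% of all cells outside the class. After thinning to 20000 reads the shares were 30.2%, 28.8%, 32.1%, 12.4% and 20%. The share with both genes in the Gja4-Clu-Foxc2 cells was thus near those of the upstream-valve-like and precollecting-like cells. Lower shares were found in the Fndc1-type (35%, 26.5 to 44.4), Ptn-Anxa3-Stc1 (17 to 33.5) and Ptx3+ capillary-like cells (24.5%, 17.6 to 32.5). The intervals of these classes overlapped that of the Gja4-Clu-Foxc2 cells. Joint detection would take in 230 cells (35.1%) of the whole table. Since the rule used Gja4, these shares are descriptions.

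Gata2, which acts above Foxc2 in valve cells and belonged to the upstream-valve score, was found in 50.8% of members at a mean of 0.38, against 40.5% and 0.23 in the other cells and 58.9% and 0.52 in the upstream-valve-like cells. Foxc2 and Gata2 were found together in 17 members (27%, 16.6 to 39.7) and in 6.91% of the other cells. Foxc2 and Cldn11 were found together in 38.1% of members and 7.93% of the others. Foxc2 was used to choose the members, so the shares of pairs with Foxc2 were set by that choice and nothing is read from them.

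Pan-lymphatic genes were found in most members, at means that were mostly slightly lower than in the other cells. The 10 identity genes had a median difference of -0.122, beside -0.0014 for all genes tested, which was smaller than its SD over blocks (0.203). Against the upstream-valve-like cells the median was 0.015 and against the precollecting-like cells -0.013, so the lower level was not particular to the members. Prox1, the transcription factor that fixes lymphatic fate, was found in 98.4% of members (mean 1.58) and 97% of the other cells (1.48). Flt4, the receptor VEGFR3, and the matrix glycoprotein gene Mmrn1 were found in every member, and Pdpn, which encodes the sorting antigen podoplanin, in 93.7%. The means of Flt4 (2.26 against 2.50) and Mmrn1 (3.33 against 3.56) were below those of the other cells by less than the limit of 0.3 used below. Of the 10, 1 passed that limit: Lyve1, the hyaluronan receptor of initial lymphatics, was lower.

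Most genes of other cell types were found in few or no members, with Dcn and Kcnj8 as exceptions. Of the 8 mural genes listed, 5 (Pdgfrb, Cspg4, Myh11, Tagln and Des) were at 0 in all 63 cells, for which the limit of 3 cells gives a share of up to 4.76% and the exact two-sided interval one of up to 5.69%. Ptprc and Cd3e were at 0 among 7 haematopoietic genes, Epcam and Krt18 among 3 epithelial genes, and Top2a, Cdk1 and Ccnb1 among 5 genes of cycling cells. Of the 6 fibroblast genes, Dcn was found in 41.3% of members and 28.8% of the other cells, whereas Col1a1, Col1a2 and Col3a1 were found in 4.76% each and Lum in none. The potassium channel gene Kcnj8 was found in 39.7% of members and 46.9% of the other cells, and the other mural genes in at most 4.76% of members. At least 1 gene of the mural list was found in 42.9% of members and 51.6% of other cells, and of the fibroblast list in 47.6% and 33.9%. For the haematopoietic list these shares were 23.8% and 19.1%, and its most frequent gene was found in 12.7% of members. The part of these genes in the differences between classes was not tested. No member held reads of both Xist and a Y-linked gene, a mark of 2 cells of different sex in 1 well, against 4 of the other cells (0.67%, 0.18 to 1.72). The interval of the members reaches 5.69%, so these counts do not tell the groups apart.

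Few genes set the Gja4-Clu-Foxc2 cells apart from all other cells. A gene was counted when the 2 means of ln values differed by at least 0.3, among 9635 genes found in at least 10% of all cells and not used by any score. Of these, 15 genes (0.156%) were higher in the members and 12 (0.125%) were lower. The upstream-valve-like cells, treated in the same way against their own rest, had 1.1% of genes higher and 0.799% (77 genes) lower, and the precollecting-like cells 0.758% (73) and 0.343% (33). The classes differ in size, and no test was made of these counts.

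The leading gene was Igfbp5, which encodes a secreted binding protein of insulin-like growth factors. It was found in 62 members (98.4%) with levels of 0 to 4.95 (median 2.13, mean 2.14 ± 1.36), and in 88.5% of the other cells (median 1.04, mean 1.40). The difference of 0.74 was present in 9 of 10 blocks, and it stayed past 0.3 in all 11 other ways of forming or thinning the class, at 0.46 or more. Its SD over blocks was 0.73, about the size of the difference itself. Igfbp5 was also higher than in the upstream-valve-like cells, by 0.96, and than in the precollecting-like cells, by 0.74.

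Tsc22d1, a leucine zipper transcriptional regulator, had a mean of 1.90 in members and 1.44 in the other cells. Its difference of 0.46 was found in 10 of 10 blocks and passed the limit in 7 of the 11 alternatives.

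Spp1 and Slc29a4 were carried by a part of the members. Spp1, encoding the matrix phosphoprotein osteopontin, was found in 22 of 63 (34.9%, 23.3 to 48) with a median of 0 and a highest level of 4.60, and its mean was 0.61 against 0.12 (26.8% of the other cells). Without the 25% of cells highest in immediate-early genes its difference was 0.086. Slc29a4, encoding a monoamine transporter, was found in 49.2% (36.4 to 62.1) of members and 20.2% of the other cells, with means of 0.57 and 0.14. Of the genes counted as higher, these 2 had a median of 0 in members together with Sncg, and their means rest on fewer cells than that of Igfbp5.

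Adm, which encodes the lymphangiogenic peptide adrenomedullin, differed by 0.37 (means 0.85 and 0.48), higher in 6 of 10 blocks. Ednrb, the endothelin receptor type B, also differed by 0.37 (1.13 and 0.76), but passed the limit in 3 of the 11 alternatives. It was found in 73% of members and 76.2% of the other cells. Gadd45g, a growth arrest and DNA damage-inducible gene, differed by 0.45, higher in 7 of 10 blocks, but by 0.075 without the cells rich in immediate-early genes. Dnajb1, an HSP40 cochaperone, differed by 0.36, higher in 6 of 10. Podxl, a sialomucin of the endothelial surface, differed by 0.37, and Psmb9, a subunit of the immunoproteasome, by 0.34 in 10 of 10 blocks. Psmb9 passed the limit in 4 of the 11 alternatives. The others were Nsg1 (0.41), Tmem176b (0.40), Lgals3bp (0.33) and Sncg (0.31). Among the higher genes named here, only Igfbp5, Tsc22d1 (SD over blocks 0.23) and Lgals3bp (0.30) had a difference above its SD over blocks.

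Of the lower genes, Aqp1, the water channel aquaporin 1, had a mean of 1.83 in members and 2.23 in the other cells, a difference of -0.40 in 9 of 10 blocks. Lyve1 had 1.60 against 1.99, a difference of -0.39, with levels of 0 to 3.95 in members. Both lay between the classes. They were higher in the members than in the precollecting-like cells, Aqp1 by 0.81 and Lyve1 by 0.50. Against the upstream-valve-like cells they were higher too, Aqp1 by 0.46 and Lyve1 by 0.39. The scavenging chemokine receptor gene Ackr3 was lower by 0.31, the urokinase receptor gene Plaur by 0.32, the thrombospondin gene Thbs1 by 0.33 and the lysosomal protease gene Lgmn by 0.36. Psma7, Fhl1, Pcp4l1 and Ablim3 completed the 10 lowest named genes, with differences of -0.33 to -0.38. The differences of Lyve1, Lgmn, Pcp4l1, Ablim3 and Ackr3 were smaller in size than their SD over blocks.

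**Figure D4:**
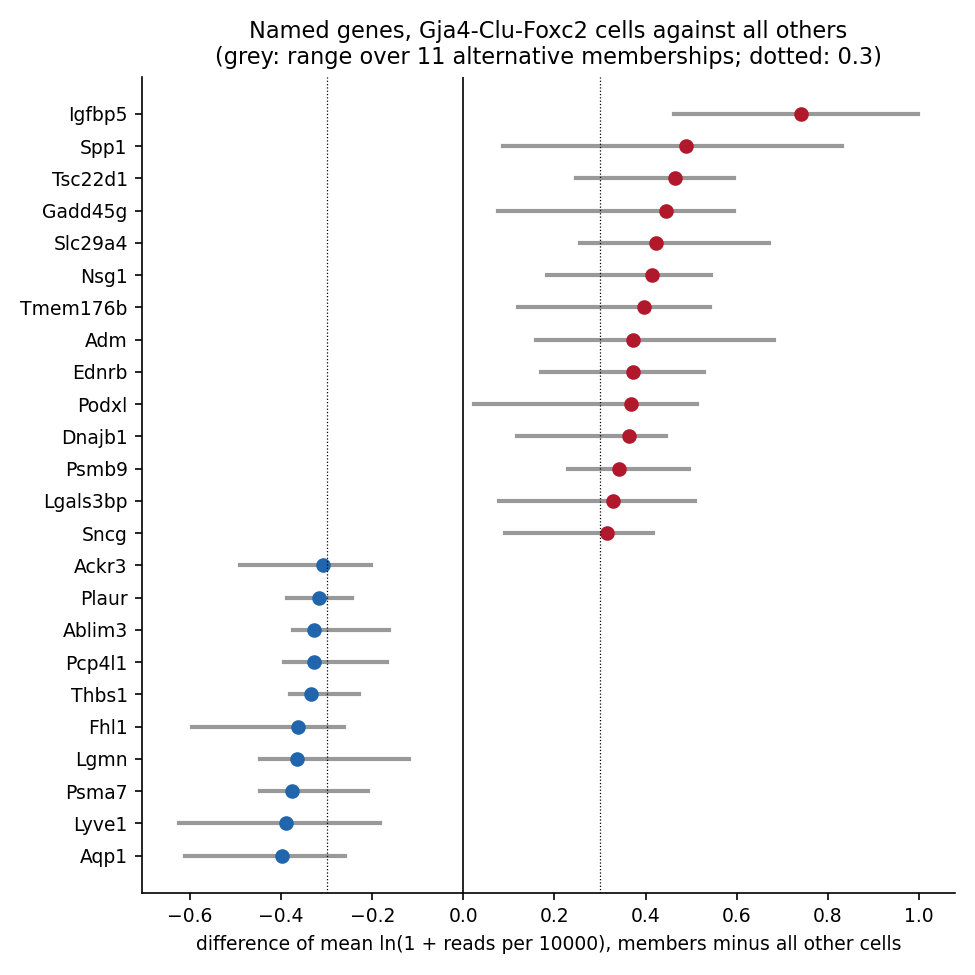
Points give the difference of mean ln(1 + reads per 10000) between the 63 members and all other cells for 14 of the 15 higher genes and the 10 named lower genes, and grey bars the range over 11 other ways of forming or thinning the class. Igfbp5 (lowest value 0.46) is the only higher gene drawn whose whole bar lies past the dotted limit of 0.3, and no bar drawn crosses 0.

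Against the upstream-valve-like cells, 0.976% of the tested genes (94) were higher in the Gja4-Clu-Foxc2 cells and 1.24% were lower. Besides Igfbp5 and Tsc22d1 (0.81), the 10 with the largest differences included the complement gene C3 (0.73), the C1 inhibitor gene Serping1 (0.67), Lcn2, which encodes the iron-siderophore carrier lipocalin 2 (0.74), Lrg1 (0.64), Trp53i11 (0.77), Rnase4 (0.71) and Epas1, encoding the hypoxia-inducible factor HIF-2α (0.64). Tsc22d1, Trp53i11, Rnase4 and Serping1 were higher in 10 of 10 blocks. Within the list of 12 tested lipid, complement and clearance genes, 4 were higher and 1, the lipoprotein lipase gene Lpl (-0.32), was lower, with a median difference of 0.129. Rule genes of either class were left out of these counts.

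The genes lower than in the upstream-valve-like cells were led by Gdf15, a stress-induced cytokine of the TGF-β family, with means of 0.45 and 1.99 and a difference of -1.54 in 10 of 10 blocks. Slc41a1, a magnesium transporter gene, differed by -1.16 and Plat, which encodes tissue plasminogen activator, by -0.93 (means 0.995 and 1.92). Fn1, encoding fibronectin, a component of the valve leaflet core, differed by -0.69 (0.85 and 1.54), and the junction gene Esam by -0.62 (0.34 in members). Laminin-α5 (Lama5), which the study used to stain valves, differed by -0.34 and Sema3a, a guidance ligand that acts in valve formation, by -0.32. Of 27 tested valve-development genes, 3 (Fn1, Lama5 and Sema3a) were lower and Emilin1, a matrix glycoprotein gene, was higher (0.30).

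Against the precollecting-like cells, 24 genes (0.249%) were higher and 66 (0.685%) were lower. Besides Aqp1, Igfbp5 and Lyve1, the higher genes named by the rule were Nupr1 (0.52), Spp1 (0.43), Lgals3bp (0.42), Podxl (0.42), Slc29a4 (0.41), Anxa1 (0.40) and Emilin1 (0.39). The lower ones were led by Clca3a1, with means of 1.88 and 2.52 (-0.63), the metalloproteinase gene Adamts1 (-0.55), Plaur (-0.54) and the endothelial sialomucin gene Emcn (-0.53). Lgmn (-0.52), Serpine2 (-0.50), Tspan7 (-0.47), Tm4sf1 (-0.47), Rnd1 (-0.46) and Fgl2 (-0.46) followed. The Gja4-Clu-Foxc2 and precollecting-like cells thus differed in fewer genes than the Gja4-Clu-Foxc2 and upstream-valve-like cells, with 150 precollecting-like and 73 upstream-valve-like cells behind the means.

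Of 30 listed valve genes that no score used, 29 were in the table and 27 passed the filter. Of these, 0 were higher and 0 lower than in all other cells by 0.3, a count that says little where 0.156% and 0.125% of all tested genes passed. Their median difference was -0.0021, beside -0.0014 for all genes tested. Efnb2, which encodes ephrin-B2 and is needed for valve formation, had the highest difference of the list (0.24, means 0.74 and 0.50, higher in 7 of 10 blocks). Emilin1 followed with 0.20, Foxc1 had 0.080 (found in 36.5% of members and 25.8% of the others), and Nfatc1, which acts with Foxc2, had 0.052. The connexin gene Gja1 had a lower mean in members (-0.16). The flow-responsive factors Klf2 (0.033) and Klf4 (-0.00049) and the channel gene Piezo1 (-0.056) had nearly the same means in both groups.

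The same holds for the counts of other pathways. Of 11 junction genes, 16 shear and mechanosensing genes, 8 Notch genes, 10 BMP and ALK1 genes, 8 integrin genes and 7 genes of the angiopoietin-Tie system tested, 0 passed the limit in either direction. Their median differences were -0.057, 0.020, 0.0077, -0.023, 0.040 and 0.020. Within the shear list Thbd, the thrombomodulin gene, came nearest with 0.29 (means 1.63 and 1.34, higher in 9 of 10 blocks), and it also stood on the haemostasis list, of whose 11 tested genes 0 passed. The Tie receptor genes Tek (-0.010) and Tie1 (0.020) had nearly equal means. Of 21 matrix genes 0 passed, with a median of -0.091.

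Matrix and haemostasis genes were also compared with the upstream-valve-like cells, where 0.976% of all tested genes were higher and 1.24% lower, and with the precollecting-like cells, where 0.249% were higher and 0.685% lower. Of the 21 matrix genes, 5 were higher than in the upstream-valve-like cells: Sparc, encoding a collagen-binding matricellular protein (0.56), Mmrn2 (0.48), Tgfbi (0.34), Mmrn1 (0.31) and Emilin1 (0.30). Fn1 and Lama5 were lower, and the list median was 0.103. Against the precollecting-like cells 1 was higher (Emilin1) and 2 were lower (Fn1, -0.32, and Tgfbi, -0.43). Of the 11 haemostasis genes, Thbd was higher than in the upstream-valve-like cells (0.62), and the lower ones included Plat, Anxa2 (-0.55) and the serpin gene Serpine2 (-0.53). Procr, the endothelial protein C receptor gene, was lower than in the precollecting-like cells (-0.38), as was Serpine2. Emilin1 was thus past the limit as higher against both classes, Fn1 and Serpine2 as lower against both, and Tgfbi with opposite signs.

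Genes of initial lymphatics and of blood vessels gave mixed values. Of 9 tested genes of initial lymphatics that no score used, only Lyve1 passed the limit against all other cells, and the list median was 0.095. Nts, which encodes the peptide neurotensin, had means of 1.67 and 1.38, was lower than in the upstream-valve-like cells by 0.51 and was higher than in the precollecting-like cells by 0.32. The claudin 5 gene Cldn5, the main endothelial claudin, was found in every member at a mean of 3.41 against 3.31. Of 12 blood endothelial genes 6 passed the filter on detection, and only Aqp1 passed the limit. Ackr1 and Esm1 were at 0 in all members, with the same upper limits as the mural genes at 0, and Flt1 was found in 1. Emcn and Plvap, which LECs also carry, were found in 96.8% and 76.2% of members. Vwf, a blood endothelial gene also known from lymphatic valves, was found in 6 members (9.52%) and in 10.5% of the other cells.

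The 12 tested lipid, complement and clearance genes had a median difference of 0.063 against all other cells. The apolipoprotein D gene Apod differed by 0.19, under the limit, with means of 0.62 and 0.42 and a higher mean in 9 of 10 blocks. Of 11 chemokine and adhesion genes only Ackr3 was past the limit against all other cells, with a list median of -0.0040. Icam1, a leukocyte adhesion molecule gene, had means of 1.33 and 1.12. The scavenger receptor gene Ackr2 had 0.59 and 0.81.

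Of all tested genes, 48.7% had a difference above 0 against all other cells. All 11 tested genes of the MHC class I pathway had differences above 0, from 0.00071 for the transporter gene Tap1 to 0.34 for Psmb9, with a median of 0.161 (SD over blocks 0.119), and only Psmb9 passed the limit. H2-K1, a classical class I heavy chain, had means of 3.45 and 3.22. All 20 tested immediate-early and dissociation genes also had differences above 0, with 1 gene (Dnajb1) past the limit, but their median of 0.143 was smaller than its SD over blocks (0.290). Fos, for example, had means of 3.49 and 3.35. Against the 2 classes most like the members, not all genes of these lists were higher. The MHC class I median was 0.101 against the upstream-valve-like cells (lowest difference -0.22) and 0.095 against the precollecting-like cells (lowest -0.046). The immediate-early median was 0.0089 (lowest -0.32) and -0.078 (lowest -0.40) in the same order. Without the 25% of cells that scored highest on the immediate-early genes, the median of that list against all other cells was -0.023. The share of the class then stayed within its exact interval, and the medians of the other lists moved by less than their SD over blocks. Of 23 type I interferon-stimulated genes 0 passed, with a median of 0.066 (SD over blocks 0.094). Without the cells highest in immediate-early genes that median was -0.0030. The 4 tested MHC class II genes had a median of 0.103 with 0 past the limit. The part of depth, dissociation or block in these small shifts was not tested beyond those values.

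Genes that the study named in connection with age gave no difference past the limit in the members. Il33, an alarmin gene, was found in 58.7% of members (mean 0.51) and 62.1% of the other cells (0.59). Mcl1, an anti-apoptotic gene, had means of 0.94 and 1.04, and Zbp1, a nucleic acid sensor gene, 0.39 and 0.29. Irf7 had 0.55 and 0.41, Ifitm2 1.59 and 1.71, and Ifitm3 4.25 and 4.19. Il33 was higher than in the upstream-valve-like cells by 0.34 and Ifitm3 by 0.32, while Ifitm2 was lower than in the precollecting-like cells by 0.34. Cells of adult mice were not analysed here.

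**Figure D5:**
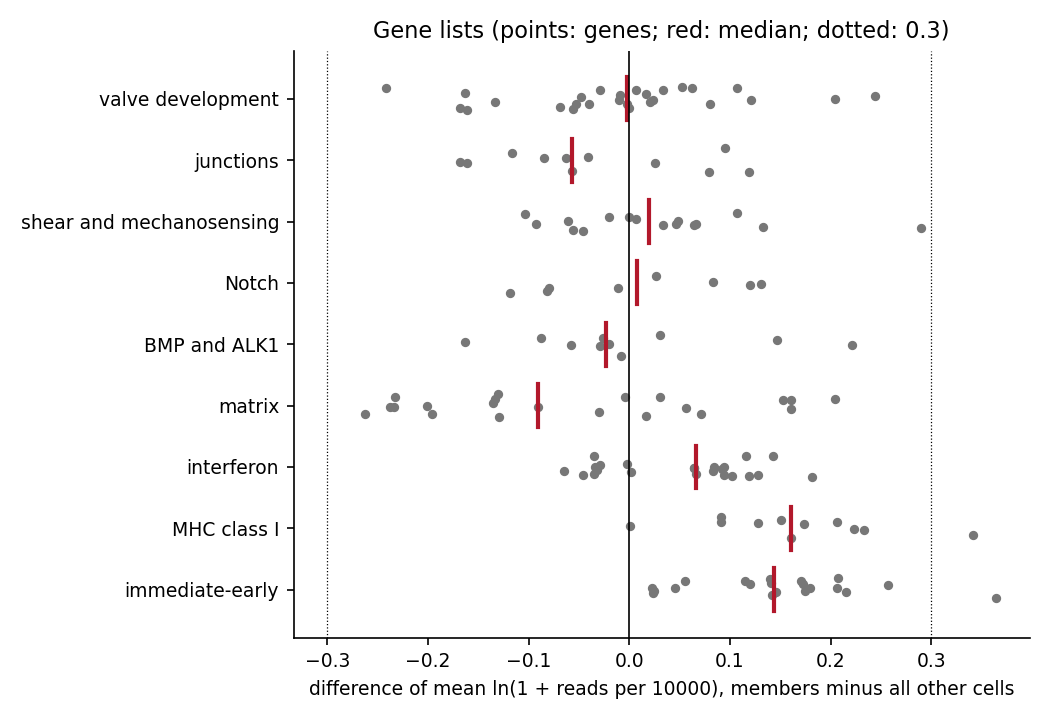
Each point is a tested gene of the named list, placed by its difference of mean ln(1 + reads per 10000) between the 63 members and all other cells, and red bars are list medians. The valve-development list centres on 0 with a median of -0.0021, the MHC class I (0.161) and immediate-early (0.143) lists lie to the right with 1 gene each past the dotted limit of 0.3.

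Over all cells of the table, the genes whose levels were most like those of Gja4 by Spearman rho were Tsc22d1 (0.229), Efnb2 (0.217), Nat8l (0.215), Bgn (0.213) and Comp (0.210). Baiap2 (0.200), Grina (0.200), Ephx1 (0.199) and Gadd45g (0.195) were also among the 10. All values are weak, and after thinning they ran from 0.149 for Nat8l to 0.280 for Tsc22d1. Bgn and Comp belonged to the precollecting score. Tsc22d1 and Gadd45g were also among the 15 genes counted as higher in the Gja4-Clu-Foxc2 cells, whose rule used Gja4.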

How the data were processed

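Per the labels and the study's methods, nasopharyngeal mucosa of aged mice of both sexes was pooled, CD31+ PDPN+ cells were sorted into 96-well plates and Smart-Seq3 libraries were made. The submitters' processing notes name STAR, featureCounts (Subread), Seurat 4.1.0 and mm10. Cells under 2000 genes or above 10% mitochondrial reads had been discarded by the authors, which leaves 656 of 1152 labelled cells in the table. The authors deposited 1 table of natural log values, ln(1 + reads per 10000): the methods describe log2, but the exponentials minus 1 sum to 10000 in every cell. Dividing by the smallest value above 0 of a cell gave whole reads for 100% of values (tolerance 0.01), from 7046 to 10727631 per cell (median 148202). The methods describe the counts as raw reads.

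Cells were classed by the highest of 6 mean z-scores (31 genes). The members and gene lists were chosen with earlier results of these data known. With 1 pool and no label for animals, class means were compared as descriptions, with a size limit of 0.3 on differences of mean ln values over 9635 genes found in at least 10% of cells, rule genes left out. Shares carry exact (Clopper-Pearson) 95% intervals, and a count of 0 allows 3 cells of the total. Cells were thinned to 20000 reads for comparison (568 cells, 53 of 63 members; 10 members were left out). Named genes were the markers, genes of the fixed lists, the 15 highest and 10 lowest against all other cells, the 10 each way against the upstream-valve-like and precollecting-like cells, and the 10 most like Gja4 (mitochondrial, ribosomal and unnamed gene models left out). Some genes that this rule names are not reported here, but the counts and medians include them. No step for doublets is described for the wells beyond the sort. Positions came from GENCODE M21 (GRCm38). The steps were tested on simulated data with 200 planted genes among 23168: 100% of planted cells and 75.5% of planted genes were recovered against all other cells. In these data the genes of each score were raised together in the cells of its class, and the planted class had 109 cells. The recovery therefore does not show how well the 63 members, whose markers hardly varied together, were found. Python 3.11.15, numpy 2.4.6, scipy 1.17.1 and pandas 2.3.3 were used. Alternatives changed depth, margin, score scale, markers, cells, filters and size limit.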

Additional observations from a re-analysis of the deposited data

How the results depend on the processing

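The share of 9.60% became 5.64% with a margin of at least 0.25 and 13.1% without Angpt2 in the score, and cells with both Gja4 and Cldn11, a definition added after seeing the data, made up 35.1%. The joint share of Gja4 and Cldn11 was 33.3% to 55.3% where the class was formed anew or cells were left out, within the interval of the 44.4%, but 30.2% in the original members after thinning, below it. Numbers of genes are given as percentages of the 9635 genes tested. Against all other cells, 0.156% of genes were higher and 0.125% lower. These became 0.571% and 0.374% with the margin (37 members), 0.353% and 0.363% without the 25% of cells poorest in genes, 0.0104% and 0% at a difference of 0.5, and 5.90% and 7.22% by a linear ratio of 1.5, in which single cells with many reads weigh more. The higher share was 0.0727%, 0.0415%, 0.0934% and 0.270% without Gja4, Clu, Foxc2 and Itga9 in the score. The lower share was 0.0727%, 0.239% and 0.0623% without Clu, Angpt2 and Foxc2, and 0.239% without the 25% of cells richest in immediate-early genes. Cells with Gja4 and Cldn11 had 0.0208% higher and 0.0104% lower, and cells with Gja4 and Foxc2, also added after seeing the data, 0.301% higher. Leaving out each block in turn gave 0.145% to 0.239% higher and 0.114% to 0.197% lower, with the highest values without block 1 and block 2.

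Against the upstream-valve-like cells, the 0.976% higher became 1.48% after thinning, 0.540% with ranks, 0.218% at 0.5 and 13.6% by the ratio, and the 1.24% lower became 0.820% with ranks, 2.04% without the cells rich in immediate-early genes, 0.270% at 0.5 and 10.97% by the ratio. Against the precollecting-like cells, the 0.249% higher became 0.477% both with the margin and without the cells poorest in genes, 0.135% with ranks, 0.156% without Foxc2, 0.571% without the cells rich in immediate-early genes, 0.0311% at 0.5 and 11.4% by the ratio. The 0.685% lower became 0.436% after thinning, 0.374% without Foxc2, 0.415% without Itga9, 1.09% without the cells poorest in genes, 0.0519% at 0.5 and 6.67% by the ratio. The causes of these changes were not tested. List medians moved by less than their SD over blocks, a wide measure with 3 to 9 members in a block, except that of the haemostasis genes after thinning and a new filter (-0.133). The 65 differences of single named genes kept their sign in all alternatives, which the choice of the largest differences favours, but only 2 of the 15 higher genes, Igfbp5 among them, stayed past 0.3 in all 11 other memberships. Depth limits sparse genes: after thinning, 39.6% of members had Foxc2, against 55.6% before. No paired analysis was possible because the pool is 1 sample.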

Other observations

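Cells in which both Gja4 and Foxc2 were found, whatever their class, were looked at after the data had been seen, because Foxc2 most often led the score. There were 75 such cells (11.4%), and 26 of them (34.7%) were Gja4-Clu-Foxc2 cells. They had 29 higher genes by the same limit of 0.3 against all other cells, 0.301% of the 9635 tested. Of these, 8 were among the 15 (0.156%) of the scored class, including Adm, Gadd45g, Igfbp5, Nsg1, Slc29a4, Spp1 and Tsc22d1. The 21 others included Efnb2, the immediate-early genes Fos, Egr1 and Ier2, and Clca3a1, Nts, Vim and Tuba1b. Of their 10 lower genes (0.104%), Aqp1, Lyve1, Thbs1 and Ablim3 were also among the 12 (0.125%) lower in the scored class. Foxc2 is sparse, and the part of read depth in these counts was not tested. The 2 sets of cells share members, so the shared genes are not independent of each other.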
